A study of Mus musculus with 29 samples.

Results

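The 12 RNA-seq libraries of Ly6C-high macrophages, of 29 libraries of splenic and hepatic macrophages in the study, were used to ask where the response to loss of RNase T2 was shared between spleen and liver and where it differed. They were chosen by the gate named in the labels and fall into 4 groups of 3: wild-type spleen, Rnaset2-/- spleen, wild-type liver and Rnaset2-/- liver. The study used mice of both sexes on a C57BL/6 background, and the Rnaset2-/- mice lack both genes that encode the enzyme, Rnaset2a and Rnaset2b. Every group carried the labels Ly6C high, CD11b(+), Ly6G(-), SiglecF(-) and NK1.1(-), and the labels name no treatment. No age is given in the labels, and whether the libraries of a group came from separate mice is not stated, so all p-values measure only the spread between these libraries.

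RNase T2 is an acid ribonuclease of endosomes and lysosomes that breaks down RNA taken up or turned over by the cell. Endosomal Toll-like receptors, among them TLR13, which recognizes bacterial ribosomal RNA, sense RNA in the same compartment. Ly6C-high cells are the classical, bone marrow-derived monocytes, which enter tissues and there can become Ly6C-low patrolling monocytes or, in the liver, Kupffer-like resident macrophages.

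The groups differed in more than genotype and organ. In the study's methods, spleen cells were depleted of T cells, B cells, NK cells, neutrophils and erythroid cells on magnetic columns before sorting and were sorted as CD16.2-low, whereas no depletion is described for the liver, whose cells were sorted on CD45.2, F4/80, CD11b, Ly6C and CD16.2. For Rnaset2-/- liver the methods print the same gate, Ly6C-low and CD16.2-high, for the Ly6C-low and the Ly6C-high cells, so the gate of the Rnaset2-/- liver group is unclear. Depth ran from 11179177 to 21167602 reads per library (median 13654063), with the deepest 3 all from Rnaset2-/- spleen (20404155 to 21167602), and 3 reads corresponded to 0.142 to 0.268 RPM, the reads of a gene scaled to a fixed library total. All 3 Rnaset2-/- liver libraries had Xist at 0 to 0.154 RPM and summed Y-linked genes at 150.1 to 250.6 RPM, whereas the other 9 libraries had Xist at 321 to 612 RPM. Genotype and sex thus cannot be told apart in liver, nor in any difference between the organs, and genes on X and Y were left out. Liver Rnaset2-/- replicate 1 stood apart from its group, with a root-mean-square deviation from the group mean of 0.561 on the log2 scale against 0.131 to 0.369 in the other 11 libraries, and results that rest on it are given with and without it. The targeted genes and the Ly6c genes are not analysed here, so the genotype and the Ly6C gate were not checked by their own transcripts. The summed macrophage and monocyte markers (Csf1r, Cd68, Lyz2 and others) lay at 37900 to 39100 RPM in wild-type spleen, 32600 to 40100 RPM in Rnaset2-/- spleen, 38700 to 50300 RPM in wild-type liver and 32600 to 46700 RPM in Rnaset2-/- liver.

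Of 21922 autosomal genes in the table, 10963 reached 1 RPM or more in 3 or more of the 12 libraries and were tested in a single fit of genotype, organ and their interaction. Each difference below is on the scale of log2(scaled RPM + 1), Rnaset2-/- minus wild type, and the interaction is the difference in liver minus the difference in spleen. A gene was called at an adjusted p below 0.05 (limma, Benjamini-Hochberg over the 10963 genes) and a change of over 1.5-fold. The response was wider in liver: 2470 genes rose (22.5% of those tested) and 1849 fell (16.9%), whereas in spleen 698 rose (6.37%) and 788 fell (7.19%). The interaction was called for 3677 genes (33.5%), with the change higher in liver for 1938 (17.7%) and lower in liver for 1739 (15.9%). The median size of the genotype difference, without regard to sign, was 0.52 in liver and 0.29 in spleen. This fit used a common spread per gene, although the root-mean-square deviation ran from 0.131 in wild-type spleen to 0.561 in Rnaset2-/- liver. With weights for each group 1928 rose and 1536 fell in liver, against 1072 and 1265 in spleen. A separate fit for each organ gave 1839 and 1442 in liver and 951 and 1229 in spleen, so the response stayed wider in liver by a smaller margin.

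The counts of the main fit also depended on the scaling. With RPM as deposited, in place of RPM divided by relative log expression factors, the interaction split became 3056 genes higher and 807 lower in liver, and the liver split became 3521 up and 1195 down. In the same step the median difference over all tested genes moved in liver from 0.09 to 0.31 and in spleen from 0.01 to -0.10. Directions below are therefore relative to the typical gene of each library.

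Responses were sorted into classes by the calls. A shared response was called in both organs in the same direction with no called interaction, a graded response was called in both in the same direction with a called interaction, and an opposite response was called in both with opposite signs. A liver- or spleen-restricted response was called in that organ, differed between the organs by the interaction test, and stayed uncalled and within 1.5-fold in the other organ. Of 825 genes called in both organs, 428 moved in the same direction and 397 in opposite directions. The shared class held 211 genes up and 156 down. The graded class held 10 up and 51 down, of which 9 and 43 changed more in liver. The opposite class held 332 genes that fell in spleen and rose in liver, and 65 with the reverse pattern. The liver-restricted class was the largest of the classes, with 1053 genes up and 1017 down, and the spleen-restricted class held 203 up and 135 down.

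**Figure D1:**
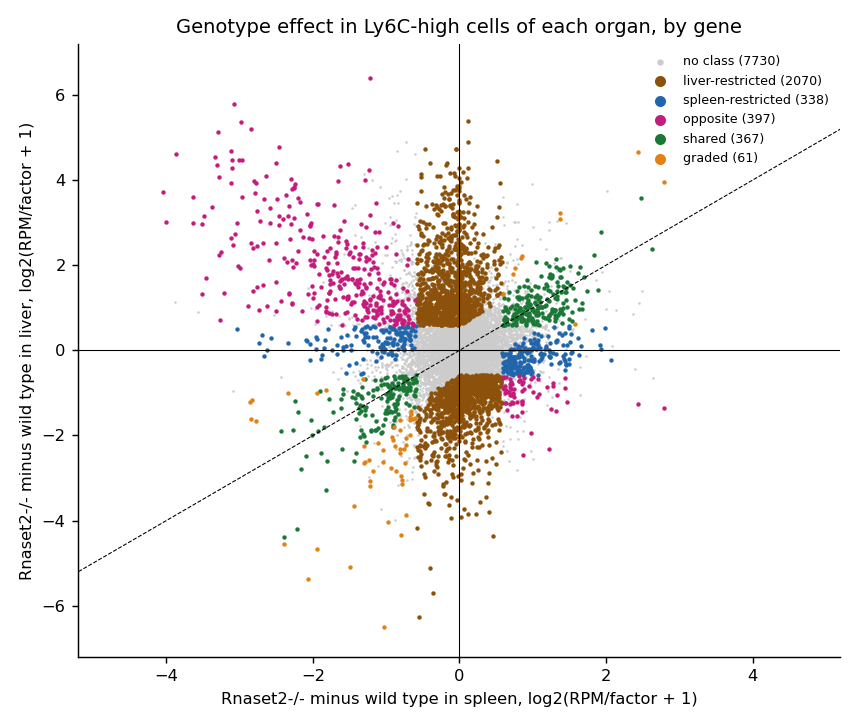
Genotype difference in spleen (x axis) against that in liver (y axis), both Rnaset2-/- minus wild type in log2(scaled RPM + 1), 1 point per tested autosomal gene, coloured by response class, with equal effects on the dashed line. Many coloured points lie along the vertical axis, the 2070 liver-restricted genes, and the 397 opposite genes fill the upper left and lower right.

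Of the 788 genes that fell in spleen, 207 (26.3%) also fell in liver while 332 (42.1%) rose there, against 16.9% and 22.5% of all tested genes. Of the 698 that rose in spleen, 221 (31.7%) rose and 65 (9.31%) fell in liver. The same-direction genes were 11.2% of those that fell and 8.95% of those that rose in liver. Across the 10963 genes the effects in the 2 organs had a Pearson correlation of -0.0859 and a Spearman correlation of 0.00708, given as a description, since genes are not independent and all genes share the same 12 libraries. With liver Rnaset2-/- replicate 1 left out, the graded class rose to 44 up and 102 down and the opposite class to 467 and 129. Calls rose in general in that fit of 10754 genes. In spleen 979 rose and 1135 fell, in liver 2532 rose and 2034 fell, and 4420 had a called interaction. Of the genes classed with all libraries, 176 of 211 and 117 of 156 shared genes kept their class, as did 320 of 332 and 57 of 65 opposite genes and 864 of 1053 and 941 of 1017 liver-restricted genes. Of the 1053 and the 332, only 922 and 331 were tested in that fit. The remainder passed the filter only with replicate 1 counted.

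**Figure D2:**
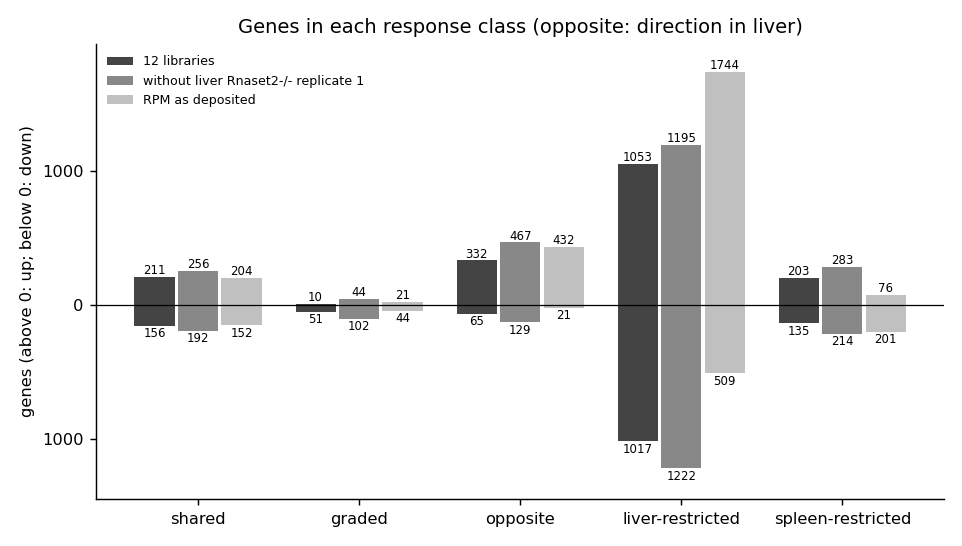
Number of genes in each response class, by direction (bars from 0), with all 12 libraries, without liver Rnaset2-/- replicate 1 and with RPM as deposited. The liver-restricted class is the largest in each setting, and with RPM as deposited it shifts from 1053 up and 1017 down to 1744 up and 509 down.

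Genes that mark other cell types made up part of the opposite class. Of its 332 genes that rose in liver, 49 (14.8%) were on a list of markers of cells other than macrophages, against 26 of 1053 (2.47%) for the liver-restricted genes that rose and 1 of 211 (0.474%) for the shared genes that rose. Of 20 tested T cell markers (Cd3 chains, Lck and others), 20 fell in spleen and 19 rose in liver, and of 20 NK cell markers 19 fell in spleen, and in liver 16 rose and 1 fell. Of 16 B cell markers, 5 fell in spleen and 15 rose in liver. Without liver Rnaset2-/- replicate 1, 10 of them were tested, of which 7 fell in spleen and 10 rose in liver. The summed T cell markers were at 678 to 746 RPM in wild-type spleen, 77.8 to 144 in Rnaset2-/- spleen, 58.8 to 75.1 in wild-type liver and 578 to 1010 in Rnaset2-/- liver. Themis and Bcl11b were at 0 in wild-type liver. The corresponding sums for NK cell markers were 1190 to 1260, 116 to 257, 51.6 to 74.6 and 525 to 1100 RPM, and for B cell markers 745 to 841, 136 to 176, 101 to 156 and 359 to 1530 RPM. Each sum was thus lower in every Rnaset2-/- than in every wild-type library of the spleen and the reverse in the liver, the pattern of the opposite class, and its part in that class was not tested. In bulk libraries, fewer cells of a type and less RNA per cell cannot be told apart.

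Endothelial markers differed in liver. Of 23 tested, 21 rose and 1 fell there and 3 fell in spleen, with a summed level of 342 to 387 RPM in wild type and 1300 to 5800 RPM in Rnaset2-/-, whereas the sums in spleen overlapped (198 to 221 and 187 to 271 RPM). Neutrophil markers summed to 32900 to 35200 RPM in wild-type and 36500 to 63700 RPM in Rnaset2-/- spleen, with 3 of 21 called up there. They summed to 406 to 2620 and 353 to 1910 RPM in the 2 genotypes in liver, where 1 was called up and 4 down. The neutrophil list includes S100a8, S100a9 and Chil3, and how much of its sum came from neutrophils rather than from the sorted macrophages was not tested. Of 16 dendritic cell markers, 11 fell in spleen, and in liver 6 rose and 4 fell. Of 12 erythroid markers, 4 fell in spleen, and in liver 10 rose and 1 fell. Summed hepatocyte markers stayed at 43.1 to 92.1 RPM in wild-type and 40.2 to 110 RPM in Rnaset2-/- liver, and of 12 eosinophil and basophil markers 5 rose and 1 fell in liver. Over all tested genes 6.37% rose and 7.19% fell in spleen, and 22.5% rose and 16.9% fell in liver. The neutrophil shares in liver were close to those or under them. With liver Rnaset2-/- replicate 1 left out, 7 of 21 neutrophil markers were called up in spleen, and in liver 3 were up and 3 down, where the median moved from -0.39 to 0.32. In the same fit 7 of 11 erythroid and 5 of 21 endothelial markers fell in spleen. Of all 10754 genes of that fit, 979 rose and 1135 fell in spleen, and 2532 rose and 2034 fell in liver.

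**Figure D3:**
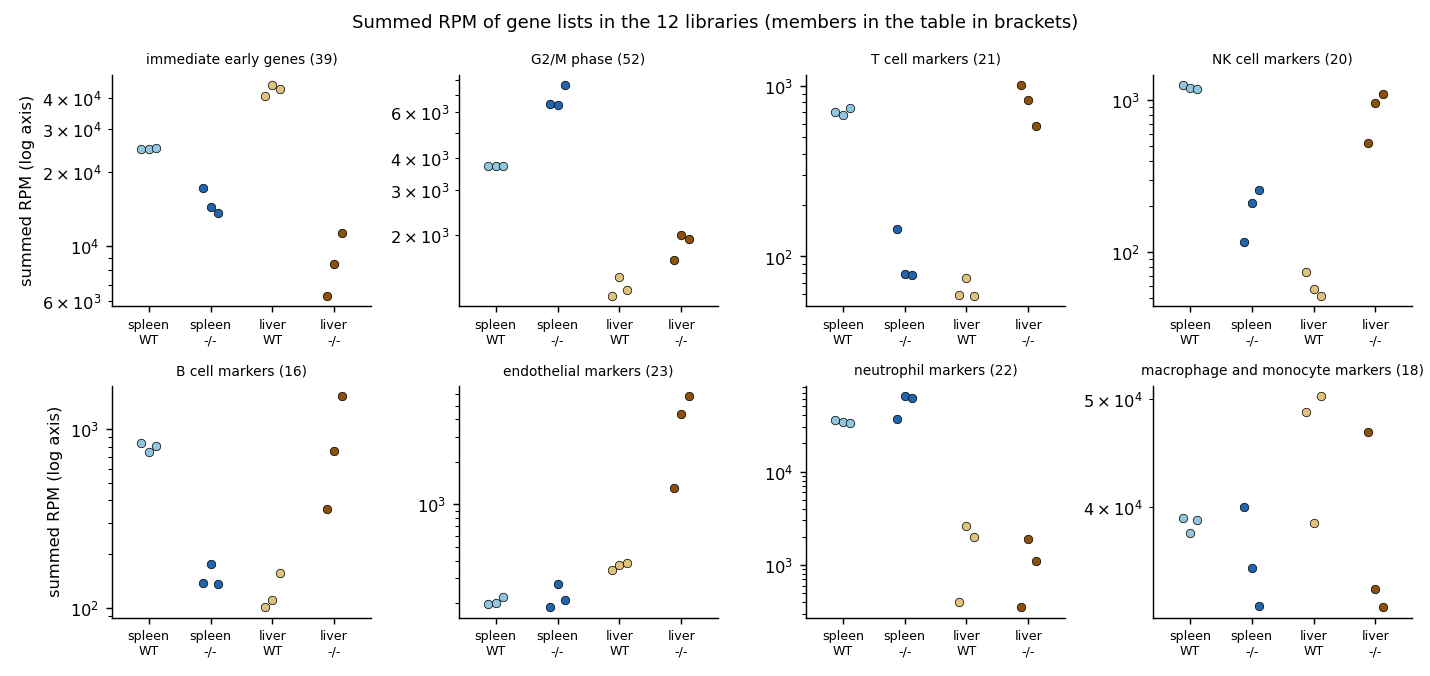
Summed RPM (log axis) of the members of 8 gene lists in each of the 12 libraries, by organ and genotype. The T, NK and B cell sums fall from wild type to Rnaset2-/- in spleen and rise in liver, the endothelial sum rises in liver, and the immediate early sum is lowest in the Rnaset2-/- liver libraries.

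The shared genes that rose were led by Cd300e, Upp1, Fcgr4 and Fabp4. Values are given throughout in RPM as deposited for replicates 1, 2 and 3 in that order. Cd300e, which encodes an activating receptor of monocytes (chromosome 11 from 115051917 to 115062177, GRCm38), was at 4.09, 6.52 and 6.79 RPM in wild-type and 30.7, 40.9 and 29.7 RPM in Rnaset2-/- spleen. In liver, Cd300e was at 21.1, 13.3 and 7.25 RPM in wild type and 52.7, 452 and 309.8 RPM in Rnaset2-/-. The genotypes did not overlap in either organ, and in Rnaset2-/- liver replicate 1 was the lowest. The difference was 2.48 (SE 0.58, adjusted p = 0.0124) in spleen and 3.59 (SE 0.58, adjusted p = 0.00036) in liver, with an interaction of 1.10 (adjusted p = 0.323, limma). The spleen call was lost without spleen wild-type replicate 1 or spleen Rnaset2-/- replicate 2 (adjusted p of 0.0523 to 0.0571), and the interaction was called without liver Rnaset2-/- replicate 1 (log2 difference 1.96, adjusted p = 0.00276).

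Upp1, uridine phosphorylase, which splits uridine to uracil and ribose phosphate, was at 1.87, 2.15 and 1.26 RPM in wild-type and 12.8, 16.96 and 15.3 RPM in Rnaset2-/- spleen. In liver, Upp1 was at 12.8, 17.6 and 8.95 RPM in wild type and 299.6, 41.6 and 45.2 RPM in Rnaset2-/-. The genotypes did not overlap in either organ, and the highest value, in liver Rnaset2-/- replicate 1, was far above the others of its group. The differences were 2.63 (SE 0.61, adjusted p = 0.0118) in spleen and 2.37 (SE 0.61, adjusted p = 0.00682) in liver. The spleen call was lost without spleen wild-type replicate 3 (adjusted p = 0.0512), DESeq2 gave no adjusted p for either difference, and the interaction was called without liver Rnaset2-/- replicate 1 (log2 difference -1.25, adjusted p = 0.00696). Fabp4, a fatty acid-binding protein of macrophages and endothelium, rose 4.03-fold in spleen and 7.5-fold in liver by the group means (adjusted p = 0.0238 and 0.00265). The Fabp4 call in spleen was lost without spleen wild-type replicates 2 or 3 or spleen Rnaset2-/- replicates 2 or 3 (adjusted p of 0.0518 to 0.104), and also with low genes kept in the test (adjusted p = 0.0637), and its interaction was called without liver Rnaset2-/- replicate 1 (log2 difference 1.10, adjusted p = 0.0409). Fcgr4 also rose in both organs (1.94 and 2.78), but it encodes CD16.2, on which the cells were sorted, so its level is not a result, and its interaction was called without spleen Rnaset2-/- replicate 2 or liver Rnaset2-/- replicate 1 (log2 differences 1.00 to 1.05, adjusted p of 0.00722 to 0.0405).

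Of the shared genes that fell, Rasgef1b, a guanine nucleotide exchange factor for Ras-family GTPases (chromosome 5 from 99217426 to 99729065), was at 48.2, 53.8 and 55.2 RPM in wild-type and 9.21, 12.3 and 9.88 RPM in Rnaset2-/- spleen. In liver, Rasgef1b was at 263, 517 and 506 RPM in wild type and 141, 50.4 and 91.5 RPM in Rnaset2-/-. Every Rnaset2-/- library lay below every wild-type library of its organ. The difference was -2.09 (SE 0.35, adjusted p = 0.00206) in spleen and -2.49 (SE 0.35, adjusted p = 0.000146) in liver, and the interaction of -0.40 had an adjusted p of 0.574. Dyrk3, a dual-specificity kinase that controls the dissolution of stress granules, fell from 38.6, 39.8 and 41.4 to 9.97, 6.62 and 8.5 RPM in spleen and from 4.71, 12.3 and 7.42 to 0.768, 2.08 and 2.0 RPM in liver. The Dyrk3 difference was -2.01 (SE 0.28, adjusted p = 0.000683) in spleen and -1.99 (SE 0.28, adjusted p = 0.000152) in liver, with an interaction of 0.02 (SE 0.40, adjusted p = 0.971). Leaving out any of the 12 libraries kept both calls, as it did for Rasgef1b. The predicted gene Gm9758 was at 6.17, 3.68 and 4.48 RPM in wild-type spleen and at 0 in the Rnaset2-/- spleen libraries, which makes it at least 33.2-fold lower against a floor of 3 reads per library, and 34.2-fold lower in liver by the group means. Its interaction (-1.99, adjusted p = 0.0511) was called without liver wild-type replicate 1 or liver Rnaset2-/- replicates 1 or 3 (log2 differences -2.77 to -1.91, adjusted p of 0.000695 to 0.0492). Gm19327 fell 5.88-fold in spleen and 6.5-fold in liver, with an interaction called without liver Rnaset2-/- replicate 3 (log2 difference -0.75, adjusted p = 0.031).

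Cell-cycle genes rose in both organs. Of 51 tested genes of G2 and mitosis, 42 rose in spleen, and in liver 31 rose and 2 fell, with medians of 1.23 and 0.91 against 0.01 and 0.09 over all tested genes. Of 39 S-phase genes, 19 rose in spleen, and in liver 18 rose and 1 fell, with medians of 0.79 and 0.56. The interaction was called for 11 G2/M genes, all lower in liver, and for 9 S-phase genes, of which 8 were lower in liver. Over all tested genes it was higher in liver for 17.7% and lower for 15.9%. The 33.5% called in either direction was above the share of both lists. The S-phase interaction median of -0.11 changed sign with RPM as deposited (0.24), DESeq2 (0.03) and edgeR (0.08). Cenpa, the centromeric histone H3 variant, went against the list in liver: it rose from 58.4, 45.2 and 53.7 to 101, 80.9 and 107 RPM in spleen and fell from 19.99, 35.04 and 38.02 to 19.4, 16.99 and 16.4 RPM in liver. The Cenpa interaction was -1.99 (SE 0.32, adjusted p = 0.000672). Its spleen call was lost without spleen wild-type replicate 2 or spleen Rnaset2-/- replicate 3 (adjusted p of 0.052 to 0.0546). Bub1, a kinase of the spindle checkpoint, had an interaction of the same sign, -2.05 (SE 0.40, adjusted p = 0.00224). It rose from 5.76, 6.38 and 4.48 to 12.5, 10.9 and 18.04 RPM in spleen and lay at 1.003, 2.17 and 3.31 RPM in wild-type and 0.998, 0.85 and 1.08 RPM in Rnaset2-/- liver, near the filter, where its call was lost without spleen wild-type replicates 1, 2 or 3, spleen Rnaset2-/- replicate 1, liver wild-type replicates 2 or 3 or liver Rnaset2-/- replicates 2 or 3 (adjusted p of 0.0504 to 0.172), and also with low genes kept in the test, RPM as deposited, a separate fit for each organ, all 29 libraries in the fit or weights for each group (adjusted p of 0.0798 to 0.151). Its spleen call was lost without spleen wild-type replicate 3 or spleen Rnaset2-/- replicate 3 (adjusted p of 0.0517 to 0.0535).

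The linker histone gene Hist1h1b, which encodes histone H1.5 and is transcribed in S phase, was among the clearest members of the opposite class. It was at 368, 352 and 337 RPM in wild-type and 796, 649 and 862 RPM in Rnaset2-/- spleen. In liver, Hist1h1b was at 178, 165 and 166 RPM in wild type and 74.7, 92.99 and 66.4 RPM in Rnaset2-/-. All 3 Rnaset2-/- libraries were higher than the wild-type libraries in spleen and lower in liver. The interaction was -2.64 (SE 0.21, adjusted p = 3.3e-06).

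Il1b, which encodes the inflammatory cytokine interleukin-1 beta, followed the same pattern. It was at 220.2, 228 and 206 RPM in wild-type and 425, 614 and 469 RPM in Rnaset2-/- spleen. In liver, Il1b was at 1234, 1940.3 and 1385 RPM in wild type and 644, 693 and 659 RPM in Rnaset2-/- (chromosome 2 from 129364570 to 129371139). The genotypes did not overlap in either organ, and the wild-type liver libraries were the highest of the 12. The difference was 1.32 (SE 0.19, adjusted p = 0.000653) in spleen and -1.43 (SE 0.19, adjusted p = 7.97e-05) in liver. The Il1b interaction was -2.75 (SE 0.26, adjusted p = 1.3e-05). Dmkn, dermokine, rose from 1.46, 1.94 and 2.31 to 13.2, 9.56 and 19.8 RPM in spleen and fell from 2.62, 4.005 and 3.67 to 1.23, 0.85 and 1.15 RPM in liver. The Dmkn interaction was -3.70 (SE 0.35, adjusted p = 1.3e-05), and its liver call was lost with all 29 libraries in the fit (adjusted p = 0.152). 1810055G02Rik rose 2.25-fold in spleen, a call lost without spleen Rnaset2-/- replicate 3 (adjusted p = 0.0607), and fell 4.35-fold in liver. The 1810055G02Rik interaction was -3.55 (SE 0.40, adjusted p = 4.98e-05).

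The reverse pattern, a fall in spleen and a rise in liver, was led by genes outside the marker lists but in part known from lymphocytes. Gimap3, a GTPase of the immunity-associated family best known in T cells (chromosome 6 from 48764464 to 48770851), was at 50.2, 53.01 and 58.5 RPM in wild-type and 5.197, 3.77 and 3.47 RPM in Rnaset2-/- spleen. In liver, Gimap3 was at 2.62, 0.668 and 0.716 RPM in wild type and 63.9, 95.3 and 98.5 RPM in Rnaset2-/-. Wild-type spleen and Rnaset2-/- liver were the high groups and did not overlap with the remaining groups. The difference was -3.29 (SE 0.28, adjusted p = 1.97e-05) in spleen and 5.12 (SE 0.28, adjusted p = 1.1e-07) in liver. The Gimap3 interaction was 8.41 (SE 0.39, adjusted p = 3.83e-08). Gimap8, of the same family, had an interaction of 7.36 (SE 0.40, adjusted p = 1.33e-07), Ablim1, an actin-binding LIM protein, one of 7.66 (SE 0.33, adjusted p = 2.12e-08), and Serpinb6b, an intracellular serine protease inhibitor, one of 7.06 (SE 0.31, adjusted p = 2.71e-08). These 4 genes kept both calls and the interaction in every fit that left out 1 library. Between the groups they moved in the directions of the T and NK cell sums given above, whose part in their change was not tested.

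**Figure D4:**
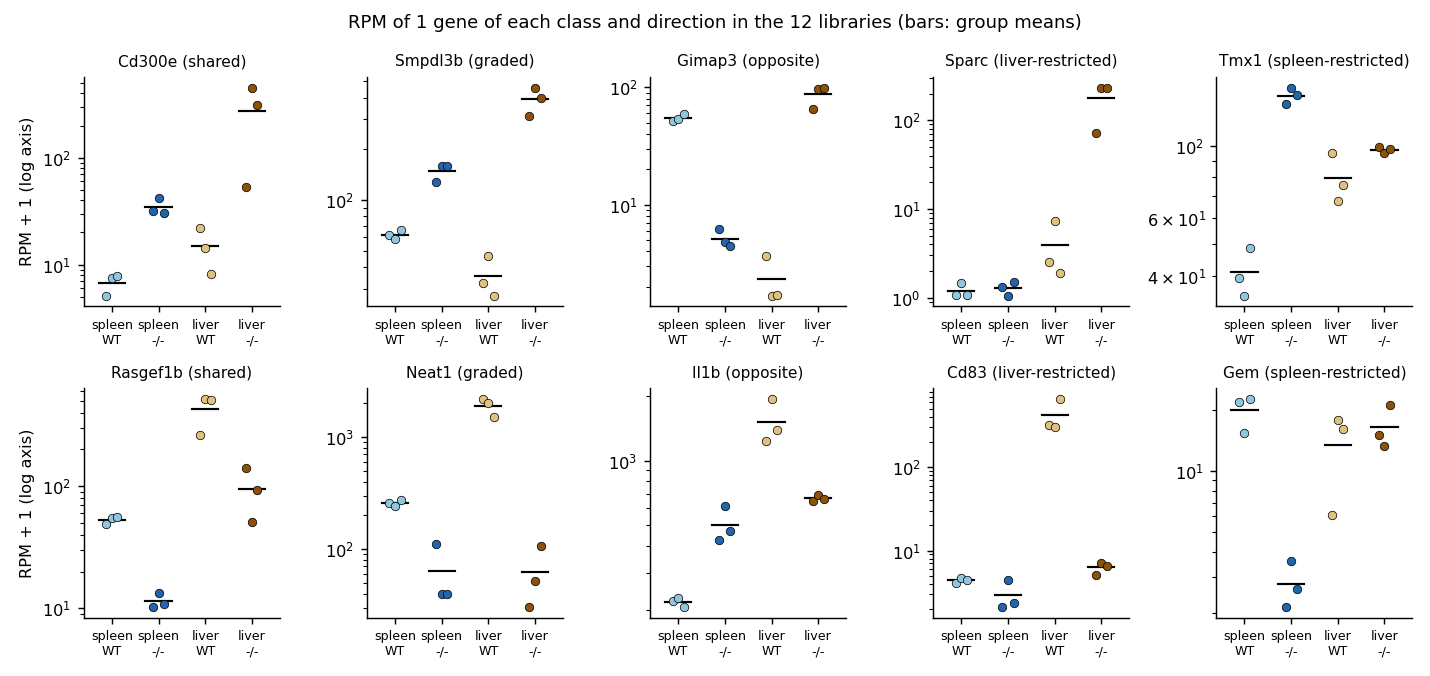
RPM + 1 (log axis) of 10 genes in the 12 libraries, by organ and genotype, with points for libraries and bars for group means: shared (Cd300e, Rasgef1b), graded (Smpdl3b, Neat1), opposite (Gimap3, Il1b), liver-restricted (Sparc, Cd83) and spleen-restricted (Tmx1, Gem). Cd83 and Neat1 fall in liver to near the levels of Rnaset2-/- spleen, while Gimap3 is high in wild-type spleen and Rnaset2-/- liver.

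The graded class was made mostly of genes that fell in both organs and more so in liver. Neat1, the long noncoding RNA that scaffolds paraspeckles (chromosome 19 from 5824708 to 5845478), was at 258, 241 and 276 RPM in wild-type and 110.4, 38.6 and 38.5 RPM in Rnaset2-/- spleen. In liver, Neat1 was at 2192, 2030.3 and 1510.1 RPM in wild type and 29.2, 51.3 and 105 RPM in Rnaset2-/-. The wild-type liver libraries were the highest of the 12, and the Rnaset2-/- libraries of both organs lay in the same low range. The difference was -2.07 (SE 0.40, adjusted p = 0.00461) in spleen and -5.36 (SE 0.40, adjusted p = 1.16e-06) in liver. The Neat1 interaction was -3.29 (SE 0.56, adjusted p = 0.000983). Fosb, a subunit of the AP-1 factor, fell 3.07-fold in spleen and 25.9-fold in liver (interaction -3.60, SE 0.56, adjusted p = 0.000506), and Ifrd1, an interferon-related transcriptional co-regulator, 1.91-fold and 17.9-fold (interaction -3.56, SE 0.34, adjusted p = 1.26e-05). Their spleen calls were fragile: that of Fosb was lost without spleen wild-type replicates 1, 2 or 3 or spleen Rnaset2-/- replicates 2 or 3 (adjusted p of 0.0705 to 0.0949), and also with low genes kept in the test (adjusted p = 0.0626). That of Ifrd1 was lost without spleen wild-type replicates 1, 2 or 3 or spleen Rnaset2-/- replicates 1, 2 or 3 (adjusted p of 0.0742 to 0.133), and also with low genes kept in the test, all 29 libraries in the fit or the replicate block (adjusted p of 0.0504 to 0.111). Ccl24, the eosinophil-attracting chemokine eotaxin-2, was at 220.3, 224 and 129 RPM in wild-type and 2.46, 0.618 and 1.54 RPM in Rnaset2-/- liver, a 124-fold fall, but only at 1.39, 1.74 and 2.66 RPM in wild-type and 0.189, 0.392 and 0.427 RPM in Rnaset2-/- spleen. The spleen call, near the filter, was lost without spleen wild-type replicates 1, 2 or 3 or spleen Rnaset2-/- replicates 1, 2 or 3 (adjusted p of 0.0636 to 0.146), and also with low genes kept in the test, all 29 libraries in the fit or the replicate block (adjusted p of 0.0573 to 0.309), while the interaction was -5.46 (SE 0.42, adjusted p = 2.63e-06).

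The graded genes that rose were led by Smpdl3b, Siglece, Slc43a3 and Fcrl5. Smpdl3b, a membrane-anchored phosphodiesterase related to acid sphingomyelinase that dampens Toll-like receptor signalling, was at 61.3, 58.01 and 64.98 RPM in wild-type and 126, 158 and 158 RPM in Rnaset2-/- spleen. In liver, Smpdl3b was at 31.4, 45.8 and 26.1 RPM in wild type and 313, 458 and 399 RPM in Rnaset2-/-. No library of either genotype overlapped with the other in either organ. The difference was 1.38 (SE 0.18, adjusted p = 0.000413) in spleen and 3.23 (SE 0.18, adjusted p = 1.21e-07) in liver. The Smpdl3b interaction was 1.85 (SE 0.25, adjusted p = 0.00022). Siglece, an inhibitory receptor for sialic acids, rose 1.68-fold in spleen and 5.76-fold in liver. The Siglece interaction was 1.37 (SE 0.26, adjusted p = 0.00202). Slc43a3, a purine nucleobase transporter, rose 2.47-fold and 12.9-fold (interaction 1.72, SE 0.52, adjusted p = 0.0234). Its spleen call was lost without spleen wild-type replicates 1, 2 or 3 or spleen Rnaset2-/- replicates 2 or 3 (adjusted p of 0.0707 to 0.113), and also with low genes kept in the test, RPM as deposited or all 29 libraries in the fit (adjusted p of 0.0614 to 0.0966). Its interaction was lost without spleen wild-type replicates 2 or 3, spleen Rnaset2-/- replicate 1, liver wild-type replicate 1 or liver Rnaset2-/- replicates 2 or 3 (adjusted p of 0.0513 to 0.0602), and also with low genes kept in the test or all 29 libraries in the fit (adjusted p of 0.0514 to 0.0844). Fcrl5, an Fc receptor-like protein also known from B cells, was at or under 3 reads in the 6 wild-type libraries and at 5.72, 4.31 and 4.04 RPM in Rnaset2-/- spleen and 11.6, 58.4 and 30.5 RPM in Rnaset2-/- liver. The Fcrl5 interaction was 2.22 (SE 0.54, adjusted p = 0.00803), which was lost with 0.1 added in place of 1, DESeq2 or edgeR (adjusted p of 0.067 to 0.602).

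Immediate early genes, which cells transcribe within minutes of a stimulus, fell in both organs, with more members called in liver. Of 38 tested, 12 fell in spleen, and in liver 35 fell and 1 rose, with medians of -0.60 in spleen and -2.12 in liver. The interaction was lower in liver for 27 and higher for 1, and without liver Rnaset2-/- replicate 1 it was lower for 30. Over all tested genes 7.19% fell in spleen and 16.9% in liver, and the interaction was lower in liver for 15.9% and higher for 17.7%. The summed level was 24900 to 25000 RPM in wild-type spleen, 13700 to 17200 in Rnaset2-/- spleen, 40800 to 45100 in wild-type liver and 6300 to 11300 in Rnaset2-/- liver. Egr1, a zinc finger transcription factor induced by growth factors (chromosome 18 from 34859823 to 34864984), was at 497, 464 and 536 RPM in wild-type and 322, 374 and 330.4 RPM in Rnaset2-/- spleen. In liver, Egr1 was at 3816, 2543 and 2758 RPM in wild type and 99.02, 83.4 and 129.998 RPM in Rnaset2-/-. In liver the genotypes were far apart, and in spleen they were close without overlapping. The difference was -0.40 (SE 0.19, adjusted p = 0.166) in spleen and -5.12 (SE 0.19, adjusted p = 1.94e-08) in liver. The Egr1 interaction was -4.71 (SE 0.26, adjusted p = 1.7e-07).

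Fos, the partner of Jun in AP-1, was at 3572, 4128 and 3879 RPM in wild-type and 2919.9, 2289 and 1926 RPM in Rnaset2-/- spleen. In liver, Fos was at 7592, 5993 and 6954 RPM in wild type and 421, 337 and 635 RPM in Rnaset2-/-. All Rnaset2-/- libraries were below the wild-type libraries in each organ. The Fos interaction was -3.61 (SE 0.32, adjusted p = 7.85e-06). Ier5, a regulator of heat shock factor activity, fell in both organs, from 21.6, 23.3 and 21.2 to 4.16, 4.56 and 4.84 RPM in spleen and from 24.3, 20.9 and 17.1 to 5.83, 3.86 and 8.69 RPM in liver, with an interaction of 0.03 (SE 0.32, adjusted p = 0.944). Myc was the member that rose in liver, from 3.396, 15.3 and 6.26 to 15.97, 18.4 and 22.9 RPM (1.07, SE 0.38, adjusted p = 0.0336). That call was lost without liver wild-type replicates 1 or 3 or liver Rnaset2-/- replicates 2 or 3 (adjusted p of 0.0587 to 0.147), and also with low genes kept in the test, a separate fit for each organ, all 29 libraries in the fit, weights for each group, DESeq2 or edgeR (adjusted p of 0.0592 to 0.101). Its interaction of 1.75 (adjusted p = 0.024) was lost without spleen wild-type replicate 3, spleen Rnaset2-/- replicates 1 or 2 or liver wild-type replicate 3 (adjusted p of 0.0509 to 0.0646), and also with low genes kept in the test (adjusted p = 0.0522).

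Promoters of the immediate early genes were searched for the cAMP response element, TGACGTCA, and the AP-1 site, TGANTCA, on both strands, from 250 bases before to 50 bases after the start given by RefSeq (GRCm38.p6). The first was present in 4 of 30 immediate early genes with a promoter in the table (13.3%: Btg2, Dusp1, Maff and Ppp1r15a), against 301 of 8448 tested genes (3.56%) and 588 of 32851 promoters in all (1.79%). The second was present in 1 of 30 (3.33%, Csrnp1), against 6.37% of tested genes and 7.81% of all promoters. Of genes that fell, the cAMP response element was present in 38 of 765 liver-restricted (4.97%), 5 of 94 spleen-restricted (5.32%), 5 of 117 shared (4.27%) and 3 of 38 graded genes (7.89%). Of genes that rose, it was present in 14 of 817 liver-restricted (1.71%), 7 of 158 spleen-restricted (4.43%) and 6 of 167 shared genes (3.59%). The 250 bases before the start are shown for 3 of the 4 genes, chosen because they hold the element, which is in capitals. They are chr17:26508473-26508722 (minus strand), chr15:79347270-79347519 (plus strand) and chr7:45526269-45526518 (minus strand), written in the direction of transcription, with the element starting 143, 29 and 12 bases before the gene's start.
Dusp1: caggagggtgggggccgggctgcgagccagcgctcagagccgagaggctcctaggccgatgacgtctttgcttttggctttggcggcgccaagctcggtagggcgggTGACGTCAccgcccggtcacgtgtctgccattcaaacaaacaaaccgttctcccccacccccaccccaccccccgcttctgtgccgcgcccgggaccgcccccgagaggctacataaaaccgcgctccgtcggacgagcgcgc
Maff: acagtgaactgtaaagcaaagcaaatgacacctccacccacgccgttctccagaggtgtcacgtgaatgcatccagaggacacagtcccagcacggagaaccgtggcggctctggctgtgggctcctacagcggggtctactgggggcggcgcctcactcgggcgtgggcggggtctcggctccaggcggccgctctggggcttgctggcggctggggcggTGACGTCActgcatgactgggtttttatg
Ppp1r15a: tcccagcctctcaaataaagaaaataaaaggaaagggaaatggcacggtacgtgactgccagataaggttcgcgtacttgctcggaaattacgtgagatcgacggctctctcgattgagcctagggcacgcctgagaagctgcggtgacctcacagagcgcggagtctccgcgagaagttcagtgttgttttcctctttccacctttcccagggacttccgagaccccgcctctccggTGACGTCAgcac

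These 4 genes fell in liver. Dusp1, a phosphatase that switches off MAP kinases, was at 2479, 2248 and 2586 RPM in wild-type and 1125, 959.7 and 787 RPM in Rnaset2-/- spleen. In liver, Dusp1 was at 2395, 2598 and 2901 RPM in wild type and 266, 342 and 579.9 RPM in Rnaset2-/-. The genotypes did not overlap in either organ, and the interaction was -1.84 (SE 0.31, adjusted p = 0.000854). Maff, a small Maf transcription factor, fell in spleen by 1.83 and in liver by 3.28 on the log2 scale, with an interaction of -1.46 (adjusted p = 0.118). Its spleen call was lost without spleen wild-type replicates 1, 2 or 3 or spleen Rnaset2-/- replicates 2 or 3 (adjusted p of 0.0631 to 0.104), and also with low genes kept in the test (adjusted p = 0.0632), and the interaction was called without liver Rnaset2-/- replicate 1 (log2 difference -2.12, adjusted p = 0.0014). Ppp1r15a, the stress-induced subunit that directs phosphatase to eIF2 alpha, had an interaction of -1.93 (SE 0.32, adjusted p = 0.000798), and Btg2, an antiproliferative factor, one of -1.90 (SE 0.28, adjusted p = 0.000366).

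Liver-restricted genes that fell were led by Cd83, a surface marker of activated dendritic cells and B cells (chromosome 13 from 43784775 to 43803132). It was at 3.05, 3.75 and 3.43 RPM in wild-type and 1.09, 3.48 and 1.33 RPM in Rnaset2-/- spleen. In liver, Cd83 was at 324, 301 and 659 RPM in wild type and 4.14, 6.101 and 5.62 RPM in Rnaset2-/-. Only wild-type liver stood high, 80.9-fold above Rnaset2-/- liver by the group means. The difference was -6.26 (SE 0.33, adjusted p = 1.1e-07) in liver and -0.55 (SE 0.33, adjusted p = 0.3) in spleen. The Cd83 interaction was -5.71 (SE 0.47, adjusted p = 4.16e-06). Thbs1, the matrix glycoprotein thrombospondin-1, was at 760.2, 1578 and 1476 RPM in wild-type and 48.2, 16.6 and 23.3 RPM in Rnaset2-/- liver. In spleen, Thbs1 was at 835, 763 and 863 RPM in wild type and 712, 712 and 383 RPM in Rnaset2-/-, so that Rnaset2-/- liver alone was low (interaction -5.35, SE 0.57, adjusted p = 3.07e-05). Trpc4ap, a substrate adaptor of a ubiquitin ligase, fell 28.5-fold in liver. The Trpc4ap interaction was -4.82 (SE 0.64, adjusted p = 0.000168).

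Liver-restricted genes that rose included several of vessels and basement membrane. Sparc, a secreted collagen-binding protein (chromosome 11 from 55394500 to 55423183), was at 1.54, 6.26 and 0.895 RPM in wild-type and 70.1, 231 and 233 RPM in Rnaset2-/- liver and at 0.049 to 0.522 RPM in the 6 spleen libraries. The highest Rnaset2-/- values were in replicates 2 and 3. The difference was 5.39 (SE 0.48, adjusted p = 4.75e-06) in liver. The Sparc interaction was 5.27 (SE 0.68, adjusted p = 0.000138). Nid1, nidogen of the basement membrane, had an interaction of 4.78 (SE 0.59, adjusted p = 0.000105) and Flt4, the receptor for vascular endothelial growth factor C, one of 4.77 (SE 0.59, adjusted p = 0.000106). The Flt4 interaction was lost with DESeq2 or edgeR (adjusted p of 0.07 to 0.322). These 3 genes followed the order of the endothelial sum, which was lowest among the Rnaset2-/- liver libraries in replicate 1 as well, and its part in their change was not tested. Il12b, the p40 subunit shared by interleukins 12 and 23, was at 0.154, 1.001 and 0.895 RPM in wild-type and 23.5, 39.5 and 54.1 RPM in Rnaset2-/- liver and at or under 1.32 RPM in spleen. Every Rnaset2-/- liver library was above every other library. The Il12b interaction was 4.79 (SE 0.47, adjusted p = 1.71e-05).

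Spleen-restricted genes had a median difference in spleen of 0.88 for those that rose and -1.04 for those that fell, against 1.31 and -1.09 in liver for the liver-restricted genes. Tmx1, a thioredoxin-like oxidoreductase of the endoplasmic reticulum (chromosome 12 from 70453095 to 70468040), was at 38.6, 33.8 and 47.8 RPM in wild-type and 133, 149 and 141 RPM in Rnaset2-/- spleen. In liver, Tmx1 was at 94.004, 66.8 and 74.8 RPM in wild type and 97.8, 93.7 and 96.5 RPM in Rnaset2-/-. The spleen groups did not overlap, whereas those in liver did. The difference was 1.94 (SE 0.16, adjusted p = 1.97e-05) in spleen and 0.04 (SE 0.16, adjusted p = 0.855) in liver. The Tmx1 interaction was -1.90 (SE 0.23, adjusted p = 9.15e-05). Slco4a1, an organic anion transporter, rose 3.25-fold in spleen with an interaction of -1.79 (SE 0.43, adjusted p = 0.0076). In a fit of all 29 libraries the Slco4a1 spleen call and interaction were lost (adjusted p of 0.0923 and 0.0866). Prss57, a serine protease of neutrophil granules, and Gca, the calcium-binding protein grancalcin of neutrophils and macrophages, rose 3.99-fold and 2.68-fold in spleen. Both moved with the neutrophil sum there, whose part was not tested. The spleen call of Prss57 was lost without spleen wild-type replicate 1 or spleen Rnaset2-/- replicate 3 (adjusted p of 0.0504 to 0.066), and also with 0.1 added in place of 1 or DESeq2 (adjusted p of 0.138 to 0.211). Its interaction (-1.80, adjusted p = 0.0446) was lost without spleen wild-type replicates 1, 2 or 3, spleen Rnaset2-/- replicates 2 or 3, liver wild-type replicates 2 or 3 or liver Rnaset2-/- replicate 1 (adjusted p of 0.0507 to 0.107), and also with 0.1 added in place of 1, low genes kept in the test, RPM as deposited, all 29 libraries in the fit, DESeq2 or edgeR (adjusted p of 0.078 to 0.379). Gca was called in liver without liver Rnaset2-/- replicate 1 (log2 difference -0.76, adjusted p = 0.0115).

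Of the genes that fell in spleen only by this classification, Gem, a small GTPase that inhibits calcium channels, was at 21.02, 14.5 and 21.7 RPM in wild-type and 1.13, 2.598 and 1.61 RPM in Rnaset2-/- spleen. In liver, Gem was at 5.09, 16.9 and 15.2 RPM in wild type and 14.05, 12.4 and 20.1 RPM in Rnaset2-/-. The spleen groups did not overlap and those in liver did. The difference was -2.73 (SE 0.37, adjusted p = 0.000529) in spleen and 0.18 (SE 0.37, adjusted p = 0.713) in liver. The Gem interaction was 2.91 (SE 0.53, adjusted p = 0.00133). Adgrg5, an adhesion G protein-coupled receptor, fell 9.76-fold in spleen (interaction 2.86, SE 0.38, adjusted p = 0.000154), and Phxr4 4.31-fold (interaction 1.93, SE 0.49, adjusted p = 0.00908). Scimp, a membrane adaptor of Toll-like receptor signalling, fell 5.44-fold in spleen. The Scimp interaction was 1.98 (SE 0.62, adjusted p = 0.0266). Its calls were not stable: the interaction was lost without spleen wild-type replicates 1, 2 or 3, spleen Rnaset2-/- replicates 2 or 3 or liver wild-type replicate 3 (adjusted p of 0.0516 to 0.059), and also with low genes kept in the test or all 29 libraries in the fit (adjusted p of 0.0586 to 0.0709). Without liver Rnaset2-/- replicate 1, at 90.6 RPM against 18.8 and 28.6 in replicates 2 and 3, the gene was called lower in liver (-0.68, adjusted p = 0.00845).

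Of the genes that the study names for cytokine and interferon responses, Il6, Tnf and Il10 had a called interaction, and Ifnb1, Rsad2, Ifih1, Mx1 and Oas1a did not. Il6 was at 1.73, 1.46 and 2.03 RPM in wild-type and 0.803, 1.27 and 0.38 RPM in Rnaset2-/- spleen. In liver, Il6 was at 16.6, 22.6 and 29.6 RPM in wild type and 3.22, 0.85 and 8.46 RPM in Rnaset2-/-. Wild-type liver was the high group and did not overlap with Rnaset2-/- liver, and the interaction was -2.18 (SE 0.63, adjusted p = 0.0187). The Il6 interaction was lost with 0.1 added in place of 1, DESeq2 or edgeR (adjusted p of 0.0813 to 0.149). Tnf had an interaction of -2.43 (SE 0.70, adjusted p = 0.0185), and the anti-inflammatory Il10, whose liver groups overlapped, one of -2.27 (SE 0.69, adjusted p = 0.0242), which was lost without spleen wild-type replicate 2, spleen Rnaset2-/- replicate 2 or liver wild-type replicates 2 or 3 (adjusted p of 0.055 to 0.0622), and also with low genes kept in the test or RPM as deposited (adjusted p of 0.0508 to 0.0584). All 3 were called lower in Rnaset2-/- liver and not called in spleen. Over all tested genes 22.5% rose and 16.9% fell in liver against 6.37% and 7.19% in spleen. Of 19 tested cytokine genes, 2 rose and 11 fell in liver against 1 and 1 in spleen, where both shares were under those of all genes. Of 25 chemokine and chemokine receptor genes, 2 rose and 15 fell in liver against 1 and 9 in spleen, and of 53 NF-kB response genes, 6 rose and 28 fell in liver against 3 and 9 in spleen. With liver Rnaset2-/- replicate 1 left out, 3 cytokine, 3 chemokine and 6 NF-kB response genes rose in spleen. In that fit 979 of all 10754 tested genes rose in spleen.

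Among chemokine genes, Ccl17, a ligand of CCR4, fell in liver from 11.1, 13.4 and 11.4 to 0.154, 0.154 and 1.23 RPM (interaction -3.18, SE 0.34, adjusted p = 3.18e-05) and was at or under 3 reads in the spleen libraries. The Ccl17 interaction was lost with DESeq2 or edgeR (adjusted p of 0.452 to 0.63), with DESeq2 at -1.55. Ccr7, the receptor that guides cells to lymph nodes, fell in spleen from 25.7, 38.4 and 27.4 to 4.35, 2.696 and 3.89 RPM. In liver, Ccr7 was at 23.2, 97.04 and 95.5 RPM in wild type and 37.8, 85.2 and 117 RPM in Rnaset2-/-, with overlapping groups (interaction 2.63, SE 0.68, adjusted p = 0.0104). It is also a dendritic cell marker, most of which fell in spleen as given above. Ccl5, a chemokine also made by T and NK cells, fell from 391, 345 and 369 to 42.05, 57.7 and 41.9 RPM in spleen and rose from 114, 135 and 159 to 2870.1, 515 and 432 RPM in liver (interaction 5.22, SE 0.80, adjusted p = 0.000458).

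Ifnb1, Rsad2, Ifih1 and Oas1a were not called in either organ, with differences of -0.56, -0.45, -0.19 and 0.17 in spleen and -0.64, 0.26, -0.29 and -0.23 in liver. In spleen Ifnb1 was called lower in 3 of 24 alternative settings, and its difference ran from -2.69 to -0.43 over the 24. Ifnb1 was called in liver without liver wild-type replicate 1 or liver Rnaset2-/- replicate 3 (log2 differences -0.85 to -0.83, adjusted p of 0.0235 to 0.0355), and Rsad2 without liver wild-type replicate 2 (log2 difference 0.95, adjusted p = 0.0131), which also gave it a called interaction (log2 difference 1.40, adjusted p = 0.0107). Mx1, an antiviral GTPase, was called lower in liver (-1.29, SE 0.20, adjusted p = 0.000314), with an interaction of -0.77 (adjusted p = 0.0568) that was called without spleen Rnaset2-/- replicate 2 or liver Rnaset2-/- replicate 1 (log2 differences -0.94 to -0.92, adjusted p of 0.0101 to 0.0364). Mx1 was also called in spleen without spleen Rnaset2-/- replicate 1 (log2 difference -0.77, adjusted p = 0.0133). Of 34 interferon-stimulated genes, 15 fell in liver, and in spleen 1 rose and 2 fell, with medians of -0.43 in liver and -0.05 in spleen, where the sign flips with DESeq2 and edgeR. Over all tested genes 16.9% fell in liver, and 6.37% rose and 7.19% fell in spleen, so the spleen shares of the list were under those. Isg20, an exonuclease, was at 62.1, 67.4 and 70.4 RPM in wild-type and 24.6, 24.9 and 32.7 RPM in Rnaset2-/- liver with overlapping groups in spleen (interaction -1.46, SE 0.21, adjusted p = 0.000352). Ifit1, which binds foreign RNA ends, had an interaction of -1.71 (SE 0.36, adjusted p = 0.00339). Stat2, which carries the type I interferon signal, fell in spleen and was not called in liver (interaction 0.90, SE 0.24, adjusted p = 0.0113, lost with all 29 libraries in the fit (adjusted p = 0.115)).

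Genes of Kupffer cell identity mostly rose in liver. Of 32 tested, 18 rose and 5 fell there against 1 and 6 in spleen, and the interaction was higher in liver for 15 and lower for 3. Over all tested genes 22.5% rose and 16.9% fell in liver, and 6.37% rose and 7.19% fell in spleen. The interaction was higher in liver for 17.7% of all genes and lower for 15.9%. The Kupffer share that fell in liver was close to that of all genes. The Kupffer counts depended on liver Rnaset2-/- replicate 1, and without it 14 of 28 rose and 8 fell in liver, and the median in liver moved from 1.37 to 0.47. Cd5l, a secreted macrophage protein also called AIM and a target of the nuclear receptor LXR (chromosome 3 from 87357881 to 87371073), was at 15.6, 15.96 and 18.4 RPM in wild-type and 3.87, 8.68 and 6.03 RPM in Rnaset2-/- spleen. In liver, Cd5l was at 1.62, 1.001 and 0.895 RPM in wild type and 348, 152 and 159 RPM in Rnaset2-/-. The genotypes did not overlap in either organ. The interaction was 7.61 (SE 0.50, adjusted p = 5.88e-07), and the spleen call (adjusted p = 0.0347) was lost without spleen wild-type replicates 1, 2 or 3 or spleen Rnaset2-/- replicates 1 or 3 (adjusted p of 0.09 to 0.12), and also with low genes kept in the test, all 29 libraries in the fit or the replicate block (adjusted p of 0.0528 to 0.0877). Cd38, an NAD-consuming surface enzyme, rose from 1.77, 4.59 and 2.505 to 239, 63.95 and 90.998 RPM in liver (interaction 5.53, SE 0.62, adjusted p = 4.58e-05) and was called lower in spleen without liver Rnaset2-/- replicate 1 (log2 difference -0.85, adjusted p = 0.0261).

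Other resident macrophage genes did not move as 1 group. Mertk, a receptor for apoptotic cells, fell in spleen from 4.09, 4.79 and 4.902 to 0.945, 0.147 and 0.332 RPM and rose in liver from 3.94, 9.595 and 4.74 to 75.1, 18.8 and 28.999 RPM (interaction 4.04, SE 0.64, adjusted p = 0.000607), with the spleen call lost without spleen wild-type replicates 2 or 3 or spleen Rnaset2-/- replicates 2 or 3 (adjusted p of 0.0584 to 0.0661), and also with low genes kept in the test (adjusted p = 0.0505). Its relative Axl was called lower in both (-1.43 and -1.12, adjusted p = 0.0329 and 0.0392), although the liver groups overlapped. The Axl calls were fragile. That in spleen was lost without spleen wild-type replicates 1, 2 or 3 or spleen Rnaset2-/- replicates 1, 2 or 3 (adjusted p of 0.0619 to 0.11), and also with low genes kept in the test (adjusted p = 0.0811). That in liver was lost without spleen wild-type replicates 1, 2 or 3, spleen Rnaset2-/- replicates 2 or 3, liver wild-type replicates 1, 2 or 3 or liver Rnaset2-/- replicates 2 or 3 (adjusted p of 0.0504 to 0.168), and also with low genes kept in the test, RPM as deposited, a separate fit for each organ, DESeq2 or edgeR (adjusted p of 0.0689 to 0.162). Clec4f, the Kupffer cell lectin, was at 3.53, 1.78 and 4.08 RPM in Rnaset2-/- liver, at or under 2 reads in wild-type liver and at 0 in the spleen libraries (interaction 1.79, SE 0.34, adjusted p = 0.00183). Clec4f passed the filter only through the Rnaset2-/- liver libraries, where it was high, so its adjusted p is not evidence of a difference. The Clec4f interaction was lost with DESeq2 or edgeR (adjusted p of 0.0549 to 1). Timd4, a phosphatidylserine receptor of resident macrophages, was at 7.29, 2.01 and 0.923 RPM in Rnaset2-/- liver, with replicate 1 the highest (interaction 2.37, SE 0.61, adjusted p = 0.0105). Its liver difference was tested in 21 alternative settings, against 24 for Cd5l, as it fell under the filter when some libraries were left out. Id1, a transcriptional inhibitor of the Kupffer list, fell in liver by 3.04 on the log2 scale (adjusted p = 4.26e-05), with an interaction of -2.33 (SE 0.51, adjusted p = 0.00442). In spleen Id1 was called lower without liver Rnaset2-/- replicate 1 (log2 difference -0.71, adjusted p = 0.0084). C1qb, a chain of complement C1q, was at 81.4, 73.01 and 104 RPM in wild-type and 1827, 184 and 234 RPM in Rnaset2-/- liver, where replicate 1 was far above the others (interaction 3.11, SE 0.96, adjusted p = 0.0246). The C1qb interaction was lost without spleen wild-type replicate 3 or spleen Rnaset2-/- replicates 2 or 3 (adjusted p of 0.0502 to 0.0622), and also with low genes kept in the test (adjusted p = 0.0577). Its liver call was lost without liver wild-type replicates 1 or 2 (adjusted p of 0.0642 to 0.0693), and also with low genes kept in the test or a separate fit for each organ (adjusted p of 0.05 to 0.095), DESeq2 gave no adjusted p for either, and its spleen difference of -1.05 was called without liver Rnaset2-/- replicate 1 (log2 difference -1.05, adjusted p = 0.00329).

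The nuclear receptor genes of the LXR pathway were not called. Nr1h3, which encodes LXR alpha, differed by 0.74 in spleen and 0.61 in liver (adjusted p = 0.116 and 0.116), with a spleen call without liver Rnaset2-/- replicate 1 (log2 difference 0.75, adjusted p = 0.00568) and a liver call without liver Rnaset2-/- replicate 3 (log2 difference 0.91, adjusted p = 0.0255). Rxra, its partner, differed by -0.47 and -0.33 (adjusted p = 0.093 and 0.145). Of 21 tested LXR target genes, 8 rose and 4 fell in liver and 5 fell in spleen, with the interaction higher in liver for 5 and lower for 1. These counts lie beside 22.5% up and 16.9% down in liver, 7.19% down in spleen and 33.5% with an interaction over all tested genes, so that the share with an interaction was under that of all genes. Without liver Rnaset2-/- replicate 1, 9 rose and 5 fell in liver, and the interaction was higher for 7 and lower for 2. Of all 10754 genes of that fit, 2532 rose and 2034 fell in liver, and 4420 had a called interaction.

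Classical monocyte genes went the other way from Kupffer cell genes. Of 18 tested, 1 rose and 12 fell in liver, 4 rose in spleen, and the interaction was lower in liver for 13, with medians of 0.20 in spleen and -0.90 in liver. Over all tested genes the interaction was lower in liver for 15.9%. Ccr2, the receptor that calls classical monocytes out of the bone marrow, was at 323, 419.6 and 380.018 RPM in wild-type and 654, 497 and 613 RPM in Rnaset2-/- spleen. In liver, Ccr2 was at 558, 548 and 352 RPM in wild type and 462, 401 and 336 RPM in Rnaset2-/-. The spleen groups did not overlap, and the interaction was -1.31 (SE 0.29, adjusted p = 0.00478). Its spleen call was lost without spleen wild-type replicates 1 or 3 or spleen Rnaset2-/- replicates 1 or 3 (adjusted p of 0.0704 to 0.101), and also with low genes kept in the test or all 29 libraries in the fit (adjusted p of 0.053 to 0.335), its interaction with all 29 libraries in the fit (adjusted p = 0.154), and it was called lower in liver without liver wild-type replicate 3 or liver Rnaset2-/- replicate 1 (log2 differences -0.72 to -0.71, adjusted p of 0.00578 to 0.017). Cd177, a surface protein of neutrophils and some monocytes, fell in liver (interaction -2.95, SE 0.79, adjusted p = 0.0126), as did Mgst1, a microsomal glutathione transferase (interaction -0.78, SE 0.23, adjusted p = 0.0203). The Mgst1 interaction was lost without spleen wild-type replicate 3 (adjusted p = 0.0527), and also with RPM as deposited or all 29 libraries in the fit (adjusted p of 0.123 to 0.417). Its liver call was lost without liver Rnaset2-/- replicates 2 or 3, where the change was under 1.5-fold (adjusted p of 0.0258 to 0.0266). That call was also lost with RPM as deposited or all 29 libraries in the fit (adjusted p of 0.0253 to 0.277), and with RPM as deposited the change was again under 1.5-fold. Hp, haptoglobin, rose in both organs, by 0.95 (SE 0.15, adjusted p = 0.00165) in spleen and 0.81 (SE 0.15, adjusted p = 0.0011) in liver. Both Hp calls were lost with all 29 libraries in the fit (adjusted p of 0.143 in spleen and 0.124 in liver). Of 18 patrolling monocyte genes, 4 rose in spleen, and in liver 4 rose and 2 fell. Over all tested genes 6.37% rose in spleen, and 22.5% rose and 16.9% fell in liver, so the patrolling shares in liver were not above those. Without liver Rnaset2-/- replicate 1 the patrolling counts were 10 in spleen, and 13 and 2 in liver. Of all 10754 genes of that fit, 979 rose in spleen, and 2532 rose and 2034 fell in liver. Cx3cr1, a receptor of patrolling monocytes, was at 26.4, 134 and 143 RPM in Rnaset2-/- liver against 75.1, 68.9 and 60.02 RPM in wild type and was called higher there only without replicate 1 (0.69, adjusted p = 0.00318). Mki67, a marker of proliferation, differed by 0.98 in spleen and 0.72 in liver (adjusted p = 0.0777 and 0.107). Its spleen difference was called without liver wild-type replicate 1 or liver Rnaset2-/- replicates 1 or 3 (log2 differences 0.98, adjusted p of 0.0112 to 0.048) and its liver difference without liver wild-type replicate 3 or liver Rnaset2-/- replicate 3 (log2 differences 1.04 to 1.05, adjusted p of 0.0295 to 0.0358).

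Of 13 tested genes of antigen presentation on MHC class II, 3 fell in spleen and 3 rose in liver, and the interaction was higher in liver for 4. Over all tested genes 7.19% fell in spleen, 22.5% rose in liver and 33.5% had an interaction, so the liver and interaction shares of the list were close to those of all genes. The summed MHC class II genes were highest in liver Rnaset2-/- replicate 1, and without that library 3 rose and 4 fell in liver and the median moved from 0.51 to -0.21. The genes with calls in both organs encode proteins that govern peptide loading. H2-Ob, a chain of H2-O, was at 19.1, 20.8 and 21.8 RPM in wild-type and 2.41, 3.73 and 3.56 RPM in Rnaset2-/- spleen. In liver, H2-Ob was at 9.72, 11.8 and 8.41 RPM in wild type and 38.2, 60.7 and 61.6 RPM in Rnaset2-/-. The genotypes did not overlap in either organ and moved in opposite directions. The H2-Ob interaction was 4.28 (SE 0.27, adjusted p = 4.91e-07). H2-Oa, its partner chain, and H2-DMb2, a chain of H2-M, had interactions of 3.70 (SE 0.40, adjusted p = 3.27e-05) and 3.43 (SE 0.26, adjusted p = 2.42e-06). H2-O is known from B cells and dendritic cells, whose marker counts above moved in the same directions in spleen, and the part of these cells was not tested. The classical gene H2-Eb1 was at 10010, 1854 and 1998 RPM in Rnaset2-/- liver, and its interaction (2.11, adjusted p = 0.0432) was lost without spleen wild-type replicates 1, 2 or 3, spleen Rnaset2-/- replicates 1, 2 or 3 or liver wild-type replicates 1, 2 or 3 (adjusted p of 0.0513 to 0.0916), and also with low genes kept in the test or all 29 libraries in the fit (adjusted p of 0.089 to 0.149), and DESeq2 gave it no adjusted p. H2-Eb1 was called in spleen without liver Rnaset2-/- replicate 1 (log2 difference -1.14, adjusted p = 0.000142) and in liver without liver Rnaset2-/- replicate 2 (log2 difference 1.43, adjusted p = 0.0489).

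**Figure D5:**
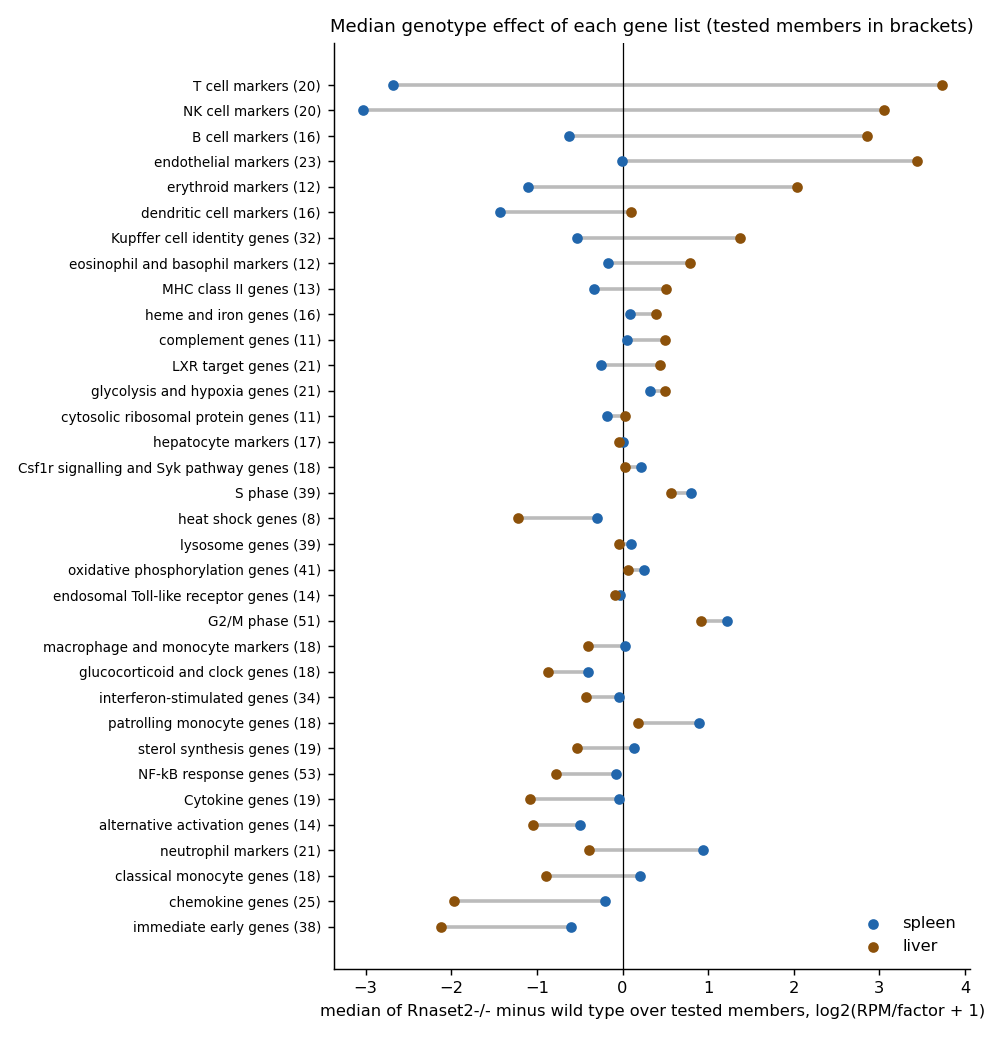
Median genotype difference (log2 scale) of each gene list in spleen and in liver, joined by a line, over the tested members (number in brackets); the vertical line is at 0. The T, NK and B cell, erythroid and endothelial markers and the Kupffer cell genes lie higher in liver, the immediate early, chemokine and classical monocyte genes lie lower in liver, and the cell-cycle lists lie above 0 in both.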

How the data were processed

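Ly6C-high CD11b+ macrophages were sorted from spleen and liver, and RNA was amplified with a targeted panel with amplicons for the genes of the mouse transcriptome. Sequences were processed by the authors with the AmpliSeqRNA plug-in, with mm10 named in the submitters' processing notes. The authors deposited gene values in RPM, reads scaled to a fixed library total, for each library, so levels are compared within a gene and not between genes. Whole reads could be recovered for 100.0% of values within 0.1 read, and those reads were used by the count models given below.

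Genes were placed with GENCODE vM21 and RefSeq, and 344 genes on X or Y and 91 not placed were left out. RPM was divided by relative log expression factors, 1 was added, and log2 values were fitted with limma 3.58.1 in R 4.3.3, with organ, genotype and their interaction and a mean trend. Calls needed an adjusted p below 0.05 and over 1.5-fold. The script was tested on simulated data. DESeq2 1.42.0 and edgeR 4.0.16 were alternatives, with those of scaling, filter, threshold, added value, weights, libraries and leaving out each library. Named genes had a group mean of at least 10 RPM, did not overlap between genotypes where called, were on no list of markers of other cells, and were the 4 in each direction of each class with the largest effect; genes named by the study (20 of 21 tested) and up to 4 per gene list, 34 lists in all, were added. The members and lists were chosen with earlier results of these data known. Intervals and floors cover counting error only. Some genes within these rules are not reported here. The labels do not say whether replicate numbers pair the libraries, and the main fit did not pair them.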

Additional observations from a re-analysis of the deposited data

Results flagged for a closer look

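The genotype difference in liver was compared with that in spleen by the interaction test (limma), which is what drew attention to these results. It was higher in liver for 1938 genes and lower for 1739. Of the genes named above, the following had a called interaction, given as the log2 difference in liver minus that in spleen. For genes down in spleen and up in liver it was Ablim1 7.66, Gimap3 8.41, Gimap8 7.36, Serpinb6b 7.06, Cd5l 7.61, Mertk 4.04, Ccl5 5.22, H2-DMb2 3.43, H2-Oa 3.70 and H2-Ob 4.28. The reverse genes had Il1b -2.75, Dmkn -3.70, Hist1h1b -2.64, 1810055G02Rik -3.55, Bub1 -2.05 and Cenpa -1.99. Genes up in both organs had Fcrl5 2.22, Smpdl3b 1.85, Slc43a3 1.72 and Siglece 1.37. Genes down in both organs had Ccl24 -5.46, Fosb -3.60, Ifrd1 -3.56, Neat1 -3.29 and Dusp1 -1.84. Of the genes restricted to liver, those that rose had Sparc 5.27, Il12b 4.79, Nid1 4.78, Flt4 4.77 and Clec4f 1.79. Clec4f passed the filter only through Rnaset2-/- liver. Liver-restricted genes that fell had Cd83 -5.71, Thbs1 -5.35, Trpc4ap -4.82, Egr1 -4.71, Il10 -2.27, Tnf -2.43, Il6 -2.18, Fos -3.61, Ifit1 -1.71, Isg20 -1.46, Cd177 -2.95, Mgst1 -0.78, Ccl17 -3.18, Ppp1r15a -1.93 and Btg2 -1.90. Spleen-restricted genes that rose had Tmx1 -1.90, Gca -1.80, Prss57 -1.80, Slco4a1 -1.79 and Ccr2 -1.31. Those that fell in spleen had Gem 2.91, Adgrg5 2.86, Scimp 1.98, Phxr4 1.93, Stat2 0.90 and Ccr7 2.63. Genes outside the classes had C1qb 3.11, Timd4 2.37, Myc 1.75, Id1 -2.33, Cd38 5.53 and H2-Eb1 2.11.

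Signal was also present in genes outside the comparison. Summed Y-linked genes were at 28.95 and 41.42 RPM in wild-type liver replicates 2 and 3 and at 150.1, 191.4 and 250.6 RPM in Rnaset2-/- liver replicates 1, 2 and 3, whereas wild-type liver replicate 1 and the 6 spleen libraries were at 0 to 0.14 RPM. The wild-type liver libraries had Xist at 321 to 539 RPM beside these values.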

How the results depend on the processing

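Counts below are of genes. With RPM as deposited the interaction counts were 3056 higher and 807 lower in liver, 423 genes rose in spleen, 1195 fell in liver, 21 were graded and up, 21 were opposite and down in liver, 1744 and 509 were liver-restricted up and down, and 76 were spleen-restricted up. With a threshold of over 2-fold, 1071 interactions were lower in liver, 266 genes rose and 497 fell in spleen, 1509 rose and 964 fell in liver, 73 and 61 were shared, 4 and 20 graded, 9 opposite and down in liver, 700 and 531 liver-restricted, and 55 and 68 spleen-restricted (up and down). With an adjusted p below 0.1 and no fold threshold, 1340 genes rose in spleen, 410 and 269 were shared, 57 and 109 graded, 275 opposite and down in liver and 327 spleen-restricted up. With weights for each group, 1072 rose and 1265 fell in spleen and 27 and 77 were graded. With no filter on low values, 3052 fell in liver, 30 were graded down and 41 opposite and down in liver. A separate fit for each organ gave 1229 genes down in spleen and gives no interaction, all 29 libraries in 1 fit gave 112 shared up, and DESeq2 and edgeR gave 30 and 20 graded up. For each of these the cause was not tested beyond what the setting itself changes.

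The replicate number as a replicate block gave interactions higher in liver for 1874 genes and lower for 1656 and moved none of the counts by over 1.5 times. Whether the numbers pair the libraries is not stated in the labels. Of 18 same-numbered pairs, 0 had a correlation of deviations over 0.1 (-0.263 to 0.0866), and 5 of 12 libraries correlated best with their own number. With 3 libraries per group these correlations cannot decide whether same-numbered libraries belong together.

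Leaving out 1 library at a time gave 1508 to 2260 interactions higher and 1397 to 2160 lower in liver, 354 to 979 genes up and 497 to 1135 down in spleen, and 2160 to 2532 up and 1613 to 2034 down in liver. It gave 124 to 256 shared up and 87 to 192 down, 8 to 44 graded up and 23 to 102 down, 234 to 467 opposite and up in liver and 31 to 129 down, 806 to 1195 liver-restricted up and 864 to 1222 down, and 103 to 283 spleen-restricted up and 77 to 214 down. Each highest count came without liver Rnaset2-/- replicate 1. The lowest counts came without wild-type spleen replicate 3 for the interaction, liver-restricted and opposite-and-down genes, without Rnaset2-/- spleen replicate 3 for genes up in spleen, shared up and spleen-restricted up, without wild-type spleen replicate 2 for genes down in spleen, shared down, graded down and opposite-and-up, without wild-type spleen replicate 1 for graded up and spleen-restricted down, and without wild-type liver replicates 1 and 3 for genes up and down in liver.

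Over 12779 values of genes from the naming rule under these settings, 11973 kept their call or stayed uncalled, 599 lost a call and 204 gained one. A further 3 changed sign with a call. Values that were uncalled in both fits were counted as kept whatever their sign, and some of them changed sign. The reversals were the interaction of Gm9758 with DESeq2 (3.55, adjusted p = 0.0405), and, without liver Rnaset2-/- replicate 1, the liver differences of Scimp (-0.68, adjusted p = 0.00845) and Cx3cr1 (0.69, adjusted p = 0.00318). Over all fits that left out 1 library these ran from -0.68 to 0.52 for Scimp and from -0.38 to 0.69 for Cx3cr1. Depth limits genes near 1 RPM, where 3 reads are 0.142 to 0.268 RPM, and sex limits every liver result.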

Other observations

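The counts of further gene groups are given beside those of all tested genes, of which 6.37% rose and 7.19% fell in spleen, 22.5% rose and 16.9% fell in liver and 33.5% had a called interaction. Without liver Rnaset2-/- replicate 1, of 10754 genes 979 rose and 1135 fell in spleen, and 2532 rose and 2034 fell in liver. In that fit 4420 had a called interaction. Of 19 tested sterol synthesis genes, 1 rose and 8 fell in liver and 2 fell in spleen, with the interaction higher in liver for 2 and lower for 8. The sterol median in spleen changed sign with RPM as deposited. Of 18 glucocorticoid and clock genes, 1 rose and 11 fell in liver and 5 fell in spleen, with medians of -0.41 in spleen and -0.87 in liver. Without liver Rnaset2-/- replicate 1, 8 of the glucocorticoid and clock genes fell in each organ. Of 14 genes of alternative activation, 1 rose and 9 fell in liver against 1 and 5 in spleen. Of 16 genes of heme and iron handling, 5 rose and 2 fell in liver and 1 fell in spleen, with 3 interactions. The heme and iron median in liver moved from 0.39 to 0.08 without liver Rnaset2-/- replicate 1, where 3 fell.

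Of 21 genes of glycolysis and hypoxia, 6 rose and 1 fell in liver and 3 rose in spleen, with the interaction higher in liver for 2 and lower for 3. Their sum was 9691 RPM in liver Rnaset2-/- replicate 1 against 4932 and 4530 RPM in replicates 2 and 3. Without that library 3 of 19 rose and 6 fell in liver, the interaction was higher for 1 and lower for 6, and 5 rose in spleen. Of 41 genes of oxidative phosphorylation, 10 rose and 4 fell in liver and 2 rose in spleen, with the interaction higher in liver for 2 and lower for 6. With liver Rnaset2-/- replicate 1 left out, 6 rose and 8 fell in liver and the interaction was lower for 12, so that the balance in liver turned. The interaction shares of the heme, glycolysis and oxidative phosphorylation groups with all libraries were under that of all genes.

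Of 39 lysosome genes, 2 rose and 7 fell in liver and 2 rose in spleen, with the interaction higher in liver for 1 and lower for 7. The share that fell in liver was close to the 16.9% of all genes. Without liver Rnaset2-/- replicate 1, 12 of 38 fell in liver and the interaction was lower for 15. The lysosome median changed sign in spleen with RPM as deposited and in liver with RPM as deposited, DESeq2 and edgeR. Of 11 complement genes, 5 rose and 1 fell in liver against 1 and 2 in spleen, of 14 genes of endosomal Toll-like receptor signalling 2 rose and 3 fell in liver against 1 and 1 in spleen, and of 18 genes of Csf1r and Syk signalling 4 rose and 4 fell in liver against 2 and 1 in spleen. An interaction was called for 4, 4 and 5 of these 3 groups. The interaction shares of the Toll-like receptor and the Csf1r and Syk groups were under the 33.5% of all genes, and that of the complement genes was close to it. With liver Rnaset2-/- replicate 1 left out, the counts in liver were 3 up and 1 down of 10 complement genes, 3 and 5 of the Toll-like receptor genes and 6 and 4 of the Csf1r and Syk genes, and 3 complement genes rose in spleen. Of 8 heat shock genes, 5 fell in liver and 2 in spleen. Of the cytosolic ribosomal protein genes 11 of 50 were tested, and 2 fell in liver.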
